A study of Mus musculus with 8 samples.

Results

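The genes described here are those of the mouse major histocompatibility complex (MHC) and of the natural killer (NK) receptor cluster, as named on a copy number array. Every autosomal probe whose gene name on the array starts with H2- or Klr was taken, which gave 160 of 220065 autosomal probes. They carry 37 gene names of 24783, with 37 probes of 24 H2- genes on chromosome 17 and 123 probes of 13 Klr genes on chromosome 6. A further spot with such a name was not placed on an autosome and was left out. Genomic DNA from 8 livers of male mice labelled C57BL/6 was hybridised to Agilent 244A arrays, which hold oligonucleotide probes of 45 to 60 bases. Hepatocellular carcinomas of FEAT transgenic mice gave 6 of the arrays, from animals of 16, 21, 20, 18.5, 22 and 12 months (tumours 1 to 6). Non-tumour liver gave the other two, from a FEAT transgenic mouse of 13 months and from a wild-type mouse of 6 months. Every FEAT mouse was older than the wild-type mouse, and 6 of the 7 FEAT arrays were of tumours. In the comparison of FEAT arrays with wild type, effects of the FEAT line, of age and of tumour state therefore cannot be told apart. FEAT is another name for the methyltransferase gene Mettl13, and the labels give neither the promoter of the transgene nor the number of founder lines. The reference on every array was liver DNA from a healthy wild-type C57BL/6 male of 6 months. Each value is therefore a log2 ratio of test over reference DNA, centred on the median of the autosomal probes of its array.

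H2- genes encode MHC molecules, which display peptides on the cell surface, class I to cytotoxic T cells and NK cells and class II to helper T cells. Klr genes encode C-type lectin-like receptors of NK cells. Among them are the Ly49 receptors (Klra), which bind class I molecules, the NKR-P1 receptors (Klrb1) and the NKG2 receptors (Klrc and Klrk1). Both clusters are rich in near-copies and differ between inbred mouse strains in sequence and in gene number, so that DNA of another strain can bind probes made from the C57BL/6 genome less well. The comparison asked whether the FEAT arrays departed from the wild-type array at these clusters. No array of another strain was among the 8, so the size of the fall that foreign sequence would give at these probes was not measured here.

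Sequences of the probes are shown where a value or a repeat in the sequence bears on the reading of the cluster. Positions are those of the array's annotation, with no build named in the labels or headers, and the letters are those of the array file. The first set holds the probe with the largest difference among the genes (H2-Ke2, chr17:32017559-32017607), the Klrc1 probe with the lowest p-value of all members (chr6:129705529-129705576) and the only probe of H2-Ea (chr17:32421707-32421763), each in lower case throughout.
H2-Ke2 probe: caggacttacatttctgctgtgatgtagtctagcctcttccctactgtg
Klrc1 probe: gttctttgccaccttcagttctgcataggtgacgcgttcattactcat
H2-Ea probe: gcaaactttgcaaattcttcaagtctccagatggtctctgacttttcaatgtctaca

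The next set shows the Klra22 probe with the most negative difference of all members (chr6:130070600-130070659, a run of 15 T in capitals) and the Klra22 probe that was low in tumour 6 (chr6:130080015-130080074).
Klra22 probe with the T run: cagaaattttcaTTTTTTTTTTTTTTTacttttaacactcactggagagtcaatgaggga
Klra22 probe low in tumour 6: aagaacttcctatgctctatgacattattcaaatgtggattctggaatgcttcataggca

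Some member probes share a run of bases with another probe of the array. Of the 160 probes, 3 share a run of at least 20 bases with another autosomal probe of the array (1.88%), against 0.320% of all autosomal probes. A Klrc2 probe (chr6:129674346-129674405) shares 27 bases with a probe named AF106008, and a pair of Klra22 probes (chr6:130086025-130086084 and chr6:130374308-130374367) shares 24 bases. Whether the shared runs reflect near-copies of genes was not tested. Capitals mark the shared run.
Klrc2 probe: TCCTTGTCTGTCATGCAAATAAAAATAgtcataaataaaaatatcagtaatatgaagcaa
Klra22 probe, first of the pair: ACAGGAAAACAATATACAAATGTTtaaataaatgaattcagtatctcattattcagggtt
Klra22 probe, second of the pair: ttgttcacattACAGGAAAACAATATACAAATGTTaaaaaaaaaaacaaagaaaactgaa

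Gene names on the array do not resolve every receptor. Klrk1, the gene of the activating receptor NKG2D, is the name of 45 probes over 250.9 kb, and Klra22 is the name of 47 probes over 448.8 kb. In the RefSeq gene table of assembly GRCm38.p6, 6 Klr symbols lie between Klrb1c and Klrc3, among them Klrb1b, Klre1, Klrd1 and Klrk1. Between Klra5 and Klra2 there are 11 Klr symbols, among them Klra4, Klra8, Klra9, Klra7 and Klra3. Klra22 is listed there as a synonym of Klra1 and H2-Ke2 as a synonym of Pfdn6, and the other 35 names matched a RefSeq symbol. No probe is named H2-K1, H2-D1, H2-L, H2-T23, Klra8 or Klrd1, so these genes have no value of their own here. A probe named Klrk1 (chr6:129601419-129601478 on the array) was found letter for letter in the RefSeq promoter window of Klre1, which encodes an NK receptor of the same cluster. RefSeq gives Klre1 more than a single start, and the probe lies at positions -105 to -46 from the start shown here and at -178 to -119 from another. The window (GRCm38.p6, plus strand) runs from 250 bases before to 50 bases after the start, and the capitals mark the probe.
Klre1 promoter window: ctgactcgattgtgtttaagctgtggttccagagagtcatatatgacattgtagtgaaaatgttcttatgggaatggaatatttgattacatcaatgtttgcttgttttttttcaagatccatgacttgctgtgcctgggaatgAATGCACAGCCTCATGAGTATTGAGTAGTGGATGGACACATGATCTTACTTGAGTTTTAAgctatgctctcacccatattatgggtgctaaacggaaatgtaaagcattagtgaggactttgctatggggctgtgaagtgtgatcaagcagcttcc

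This Klre1 promoter probe gave 0.11, 0.47, 0.07, -0.02, -0.31 and 0.10 in tumours 1 to 6, 0.11 in the FEAT normal liver and -0.30 in wild type. Tumour 5 lay below the wild-type value and the other 6 FEAT arrays above it. The difference of the FEAT mean from the wild-type array was 0.37 ± 0.23 (SE, limma, adjusted p = 0.811). In all, 64 RefSeq promoter windows of 56 genes were searched with the 160 probes.

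Across the 8 arrays, the noise between neighbouring autosomal probes was 0.22 to 0.49 and was highest in tumour 4. The 28 pairs of arrays correlated with r from 0.264 to 0.760. Of the members, 155 probes had a value on all 8 arrays, and none carried a dim, saturated or outlier flag on the wild-type array. H2-Ea and H2-Q2 have only probes with missing values, so 35 of the 37 genes entered the fit. A gene's value is the mean of the probes measured on each array, so that Klrg1 rests on fewer probes in tumour 1 than elsewhere. Klrk1 likewise rests on fewer probes in wild type, and Klra22 on fewer in tumour 1 and wild type. Over the 44 Klrk1 probes with a value on all 8 arrays, the FEAT mean minus wild type was 0.02. The wild-type group is a single array, and limma took its spread from the 7 FEAT arrays.

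No H2- or Klr gene passed the test of the FEAT arrays against the wild-type array. In the fit across all features, 0 of 155 probes, 0 of 35 genes and 0 of 37 windows of 10 neighbouring probes passed an adjusted p of 0.05 (limma, Benjamini-Hochberg over all features). The share of all features called in the same fits was 0.007% of 214235 probes, 0.0% of 24413 genes and 0.00934% of 21414 windows. At an unadjusted p under 0.05 there were 9 member probes (5.81%), 2 genes (5.71%) and 2 windows (5.41%), beside 5.63%, 4.78% and 1.79% of all features. The lowest adjusted p among members was 0.811 for probes and 0.983 for genes, both in the limma fits.

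The median difference of FEAT mean and wild-type array was -0.0032 over the 155 probes, 0.01 over the 35 genes and 0.01 over the 37 windows, against -0.02, -0.0024 and -0.0057 over all features. With the FEAT normal liver alone set against the wild-type liver, the medians were 0.0018 over probes, -0.0012 over genes and 0.0065 over windows. The mean of the MHC stretch described below differed by -0.03 in that comparison without tumours. In the comparison of all FEAT arrays, genes ranged from -0.37 to 0.49, with 17 below 0 and 18 above. The 95% interval of a single probe extended a median of 0.46 to either side, that of a gene 0.34 and that of a window 0.23. A loss of 1 of 2 copies in every cell is a log2 ratio of -1. The interval lay above -1 for 35 of 35 genes and above -0.5 for 28 of them. Among all 24413 genes these counts were 23772 and 18397, so such bounds are not particular to the members. All 37 windows had intervals between -0.37 and 0.48. Among all windows, 21279 of 21414 likewise had a lower bound above -0.5. Single probes were not bounded as closely, since 147 of 155 had a lower bound above -1, beside 204691 of all 214235 probes.

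**Figure D1:**
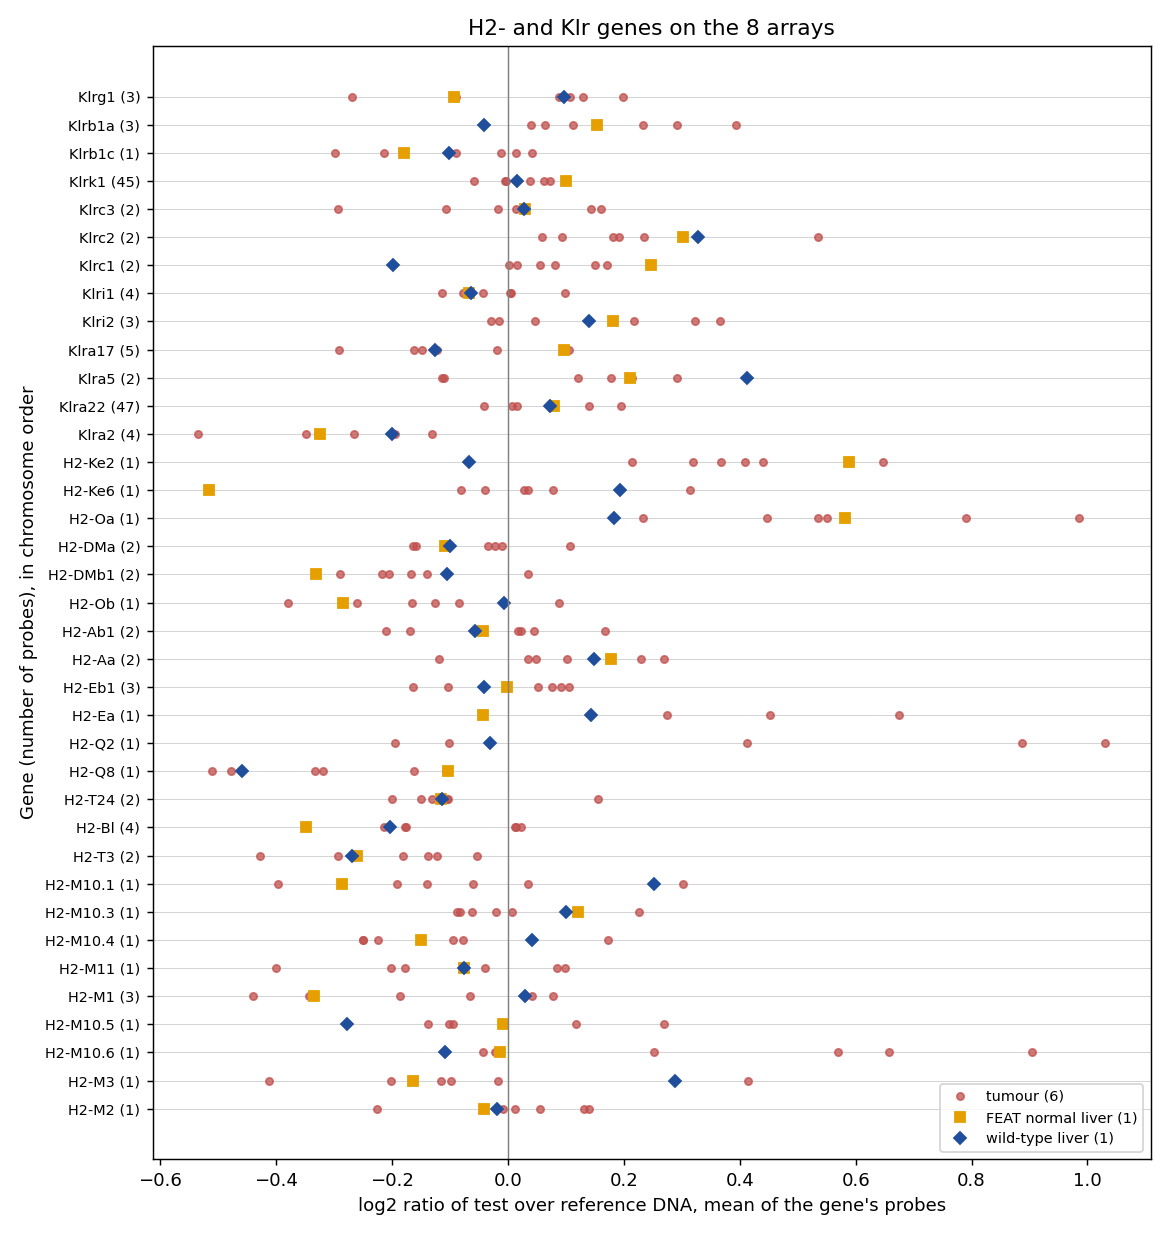
Log2 ratio of test over reference DNA (x axis, mean of the probes of each gene) for the 37 H2- and Klr genes in chromosome order (y axis, number of probes in brackets). Circles are the 6 tumours, squares the FEAT normal liver and diamonds the wild-type liver; the wild-type value lies outside all 7 FEAT values in 7 of the 35 tested genes, 6 from below and Klra5 from above.

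Members whose groups did not overlap were counted in each direction. All 7 FEAT arrays were below the wild-type array at 18 of 155 member probes (11.6%) and above it at 24 (15.5%), against 17.8% and 13.6% of all probes. Of the genes, 1 was lower on all 7 FEAT arrays (2.86%; 13.9% of all genes) and 6 were higher (17.1%; 13.0% of all genes). Of the windows, 2 were lower (5.41%) and 4 higher (10.8%), against 12.1% and 10.2% of all windows. The shares of members that were lower on all 7 FEAT arrays were thus below those of all features. For genes and windows they rest on counts of 1 and 2, too few to be read as a trait of the members. No member probe of 155 was at or below -0.5 on all 7 FEAT arrays, which 142 of 214235 probes were. At that rate none of 155 would be low. A Klrk1 probe was at 0.5 or above on all 7, from 0.76 to 1.33, and was at 1.15 on the wild-type array as well. It was 1 of 155 members, and 209 of 214235 probes were that high on all 7.

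Class II genes encode the alpha and beta chains of the A and E molecules. The A chain genes H2-Aa and H2-Ab1 had 2 probes each. H2-Aa ran from -0.12 to 0.27 on the FEAT arrays (median 0.10) and was at 0.15 in wild type. H2-Ab1 ran from -0.21 to 0.17 (median 0.02), with -0.06 in wild type. The wild-type value fell inside the FEAT range for both genes, and the differences were -0.04 ± 0.14 and 0.03 ± 0.14 (SE).

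H2-Eb1, the E beta chain gene with 3 probes, ran from -0.16 to 0.10 on the FEAT arrays, with a median of 0.05 and -0.04 in wild type. Its difference was 0.05 ± 0.13 (SE). H2-Ea, the E alpha chain gene, is known to be silent in C57BL/6 mice because of a deletion, and RefSeq lists it as a pseudogene that is transcribed. Its only probe, shown above, had a processed green signal of 124.8 on the wild-type array, at percentile 1.19 of autosomal probes. Tumours 3, 4 and 5 gave 0.67, 0.45 and 0.27, FEAT normal liver -0.04 and wild type 0.14, and tumours 1, 2 and 6 gave no value. The values lie on both sides of wild type. The fit on all 8 arrays could not include H2-Ea, and it was not called in the alternative fit that asked for at least 4 FEAT arrays (limma).

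The peptide-loading genes of class II showed the same overlap with 1 exception. H2-DMa and H2-DMb1 encode the DM molecule, which loads peptides, and H2-Oa and H2-Ob the DO molecule, which regulates DM. H2-DMa differed by 0.04 ± 0.12 and H2-DMb1 by -0.08 ± 0.14 (SE). H2-Ob ran from -0.38 to 0.09, with -0.01 in wild type. H2-Oa gave 0.55, 0.23, 0.99, 0.54, 0.45 and 0.79 in tumours 1 to 6, 0.58 in the FEAT normal liver and 0.18 in wild type. All 7 FEAT arrays were above wild type at this single H2-Oa probe, by 0.41 ± 0.22 (SE, limma adjusted p = 0.983), while its 10 neighbouring probes differed by -0.03.

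Class I genes with a probe were all of the non-classical kind, 14 genes with 21 probes. As a group their mean was between -0.19 and 0.05 on the FEAT arrays (median -0.11) and -0.09 in wild type. H2-M3, which presents formylated peptides, gave -0.12, -0.02, -0.20, -0.41, 0.41 and -0.10 in tumours 1 to 6, -0.16 in the FEAT normal liver and 0.29 in wild type. At this single H2-M3 probe tumour 5 was above wild type and the other 6 FEAT arrays below it. Its 10 neighbouring probes differed by 0.02. The difference of -0.37 ± 0.23 (SE) was the most negative of the 35 genes and did not pass the test (limma adjusted p = 0.983).

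The M10 genes encode class I-like molecules found with pheromone receptors in the vomeronasal organ. H2-M10.6 had the widest range among FEAT arrays of the 35 tested genes, from -0.04 in tumour 3 to 0.90 in tumour 4, with a median of 0.25. It was -0.11 in wild type, below all 7. H2-M10.5 ran from -0.14 to 0.27, above the wild-type value of -0.28 on all 7. H2-M10.1 ran from -0.40 to 0.30 and was at 0.25 in wild type, with tumour 4 alone above it. The 10 neighbouring probes differed by -0.03 at H2-M10.6, -0.01 at H2-M10.5 and 0.0073 at H2-M10.1. Each of these genes has a single probe, and their differences were 0.44 ± 0.33, 0.28 ± 0.15 and -0.36 ± 0.21 (SE), none of which passed the limma test.

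H2-Q2, a class I gene of the Q region, was the other gene that the fit on all 8 arrays could not include, and it was not called in that alternative fit either. Its single probe was dim, with a mean log2 signal of 7.96 over both channels of the wild-type array (6.90 at H2-Ea). It gave -0.10, -0.20, 1.03, 0.89 and 0.41 in tumours 1 to 5, -0.03 in wild type, and no value in tumour 6 and the FEAT normal liver. H2-Q8, its neighbour in the same window, ran from -0.51 to -0.10, with -0.46 in wild type. The window that spans both, in whose mean the H2-Q2 probe is not included, differed by 0.25 ± 0.10 (SE), the highest difference of the 37, with all 7 FEAT arrays (-0.09 to 0.14) above wild type (-0.21).

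H2-Ke2 and H2-Ke6 carry H2 names for their position and do not present antigen. H2-Ke2, also known as Pfdn6, encodes a prefoldin subunit. It gave 0.21, 0.44, 0.37, 0.41, 0.32 and 0.65 in tumours 1 to 6, 0.59 in the FEAT normal liver and -0.07 in wild type. The FEAT values did not overlap the wild-type value. The difference was 0.49 ± 0.16 (SE, limma unadjusted p = 0.0104, adjusted p = 0.983), the largest of the 35 genes. The 10 neighbouring probes differed by 0.30, with tumours 1 and 2 at -0.06 and -0.03, the other 5 FEAT arrays at 0.16 to 0.24 and wild type at -0.17.

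H2-Ke6, which encodes a steroid dehydrogenase (Hsd17b8), varied mainly through the FEAT normal liver. That array gave -0.52 at its single probe, while the tumours ran from -0.08 to 0.31 and wild type was at 0.19. Its difference was -0.22 ± 0.23 (SE).

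Among the NK receptors, the NKR-P1 genes had 4 probes. Klrb1c encodes NK1.1, the marker by which NK cells are stained in C57BL/6 mice. Its single probe ran from -0.30 to 0.04 on the FEAT arrays with a median of -0.09, and wild type was inside that range at -0.10. The difference was -0.0031 ± 0.14 (SE). Klrb1a, with 3 probes, gave 0.23, 0.11, 0.29, 0.04, 0.06 and 0.39 in tumours 1 to 6, 0.15 in the FEAT normal liver and -0.04 in wild type. All 7 FEAT arrays were above wild type, by 0.23 ± 0.14 (SE, limma adjusted p = 0.983).

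The NKG2 genes Klrc1, Klrc2 and Klrc3 had 2 probes each, and their products pair with CD94. Klrc1, which encodes the inhibitory receptor NKG2A, gave 0.02, 0.08, 0.15, 0.06, 0.0018 and 0.17 in tumours 1 to 6, 0.25 in the FEAT normal liver and -0.20 in wild type. The groups did not overlap, with a difference of 0.30 ± 0.12 (SE, limma unadjusted p = 0.0305, adjusted p = 0.983). Most of it came from the Klrc1 probe printed above, which was at -0.36 in wild type and 0.01 to 0.28 on the FEAT arrays, a difference of 0.47 ± 0.17 (SE). The 10 probes around it differed by -0.0080, so the departure did not extend to its neighbours. Klrc2 and Klrc3 differed by -0.10 ± 0.16 and -0.04 ± 0.16 (SE), with wild type inside the FEAT range.

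Klrk1, the name of 45 probes, was the gene with the narrowest spread among FEAT arrays, from -0.06 in tumour 5 to 0.10 in the FEAT normal liver. Wild type was inside this range at 0.02, and the difference was 0.01 ± 0.10 (SE). Of its 44 tested probes, 21 differed upward and 23 downward, from -0.53 to 0.99. On all 7 FEAT arrays 9 were lower (20.5%) and 7 higher (15.9%), against 17.8% and 13.6% of all probes. A window of 10 Klrk1 probes (chr6:129432124-129485125) was at 0.11 to 0.47 on the FEAT arrays and 0.04 in wild type. Its difference of 0.20 ± 0.12 (SE) was the largest of the windows with Klr probes and was not called.

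The Ly49 genes had 58 probes, of which 47 are named Klra22. Klra22 ran from -0.04 to 0.20 on the FEAT arrays with a median of 0.08, and wild type was inside at 0.07. Its difference was -0.0041 ± 0.12 (SE), with 23 of 46 tested probes above 0 and 23 below. Klra5, with 2 probes, gave 0.12, 0.21, 0.29, 0.18, -0.11 and -0.11 in tumours 1 to 6, 0.21 in the FEAT normal liver and 0.41 in wild type. It was the only gene lower than wild type on all 7 FEAT arrays, by -0.30 ± 0.16 (SE, limma adjusted p = 0.983). Klra17 differed by 0.05 ± 0.15 and Klra2 by -0.10 ± 0.14 (SE).

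Single Klra22 probes departed further than the gene's mean. The probe with the T run gave -0.66, -0.45, -0.17, -0.45, -0.42 and -1.50 in tumours 1 to 6, -0.75 in the FEAT normal liver and 0.16 in wild type. All 7 FEAT arrays were below wild type, by -0.79 ± 0.36 (SE, limma adjusted p = 0.811). This probe was number 35 of all autosomal probes by green signal on the wild-type array. The 215 brightest autosomal probes (0.1%) had a median difference of -0.34, and 70.7% of them were below wild type on all 7 FEAT arrays. The 10 neighbours of the probe differed by 0.04. The other Klra22 probe printed for tumour 6 was at -1.07 there, between -0.10 and 0.27 on the other 6 FEAT arrays and at -0.24 in wild type, with 10 neighbours at -0.04 in tumour 6.

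The pair of Klra22 probes that share 24 bases differed by -0.09 ± 0.27 and -0.46 ± 0.26 (SE), and neither was called. The Klrc2 probe with a shared run differed by 0.08 ± 0.19 (SE). Hybridisation of DNA from elsewhere that holds the shared run cannot be separated from that of the named gene at these probes.

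Klri1 and Klri2 encode receptors that pair with Klre1. Klrg1, which lies apart from the cluster on the same chromosome, encodes a receptor for cadherins. Klri1 differed by 0.04 ± 0.11 and Klri2 by 0.02 ± 0.16 (SE). Klrg1 ran from -0.27 in tumour 5 to 0.20 in tumour 3, with 0.10 in wild type inside the range, and differed by -0.09 ± 0.17 (SE).

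All probes in and between the named genes, whatever their name, were then averaged over each cluster. The MHC stretch (chr17:32017559-35646141, 617 probes) was at -0.02, -0.03, 0.03, 0.01, 0.14 and -0.03 in tumours 1 to 6, -0.05 in the FEAT normal liver and -0.02 in wild type. The FEAT mean was 0.01 ± 0.06 (SD, n = 7), and its difference of 0.03 from wild type was within the spread (exact permutation test, two-sided, p = 0.625). With 7 arrays against 1, this test cannot give a p below 0.125. The difference turned to -0.01 when each chromosome was centred on its own median, with 1 FEAT array above wild type. With correction for probe brightness, chosen after seeing the data, the difference was 0.06, with all 7 FEAT arrays above wild type.

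The MHC was also set beside the rest of chromosome 17. The whole chromosome was at 0.18 in tumour 5 and 0.11 in tumour 4, against -0.01 to 0.04 on the other 6 arrays. In tumour 5 the MHC was at 0.14. In tumour 4 it was at 0.01, and its value minus that of the 200 probes on each flank was -0.11, the lowest among the 8 arrays. Tumour 4 was the noisiest array, and this flank difference depended on the processing. It was -0.09 with correction for brightness and -0.05 with correction for probe GC content, beside -0.04 in tumour 1 with the latter.

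The NK receptor cluster (chr6:128632620-131319530, 274 probes) was at 0.08, 0.04, 0.02, 0.05, -0.06 and 0.02 in tumours 1 to 6, 0.04 in the FEAT normal liver and 0.02 in wild type. The FEAT mean was 0.03 ± 0.04 (SD, n = 7), and the difference of 0.01 was within the spread (exact permutation test, two-sided, p = 0.75). Tumour 5 was lowest, and its whole chromosome 6 was at -0.08. Set against 200 probes on each side, the cluster differed by 0.01 to 0.07 on the 7 FEAT arrays and by -0.01 in wild type, so that all 7 were above it. That difference of 0.05 gave p = 0.25 in the exact permutation test, which cannot go below 0.125.

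**Figure D2:**
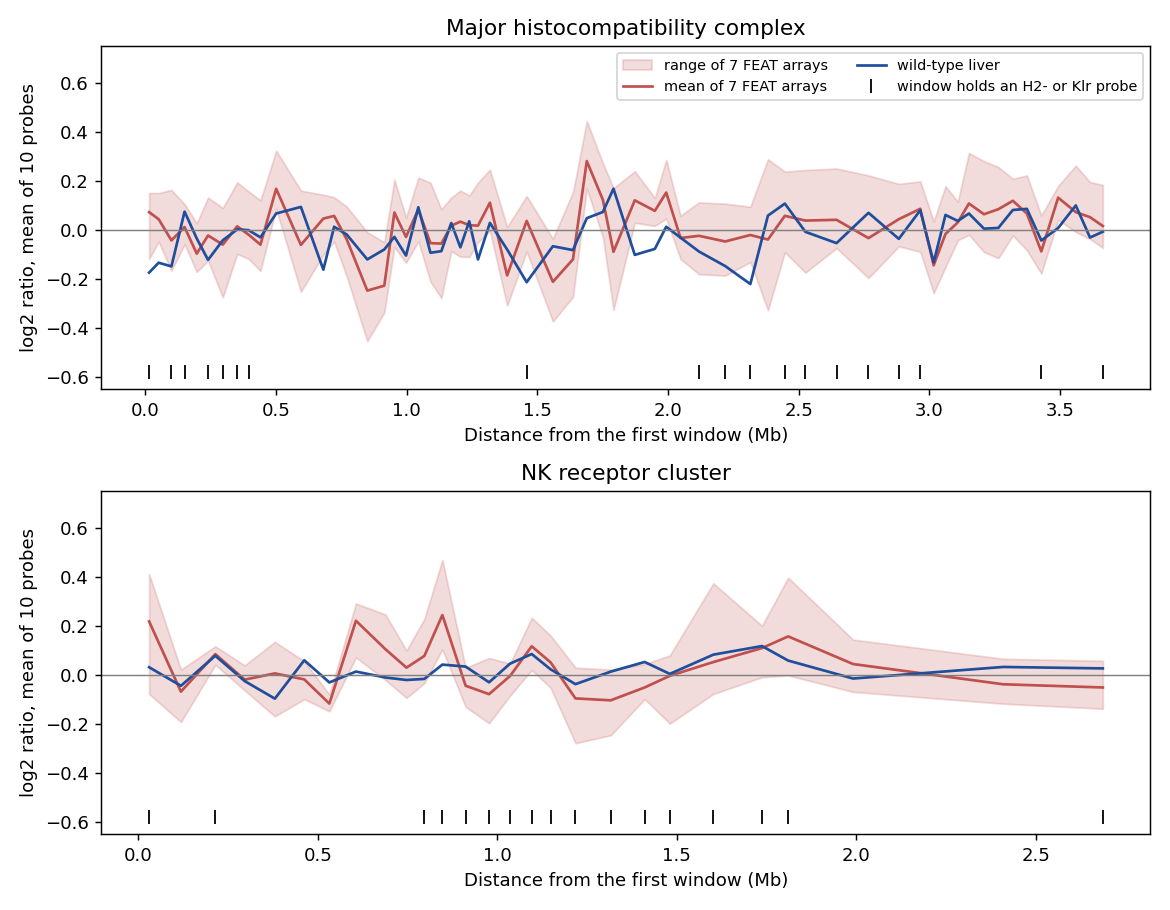
Log2 ratio in windows of 10 probes (y axis) against the distance from the first window (x axis, Mb) for the MHC (top) and the NK receptor cluster (bottom). The red line is the mean and the shading the range of the 7 FEAT arrays, the blue line is the wild-type liver, and ticks mark windows with an H2- or Klr probe; the differences run from -0.26 to 0.25 in the 61 MHC windows and from -0.12 to 0.21 in the 27 NK windows.

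Along the clusters, 0 of 61 MHC windows and 0 of 27 NK windows were called by limma, with 4 (6.56%) and 0 at an unadjusted p under 0.05, against 1.79% of all windows. In the MHC, 12 windows were higher and 0 lower on all 7 FEAT arrays, which is 19.7% and 0% of the 61, and in the NK cluster 2 were higher (7.41%) and 4 lower (14.8%). Over all windows the shares were 10.2% higher and 12.1% lower. The lowest MHC window holds Ddr1 and Gtf2h4 and no H2- probe (chr17:33768457-33809976). It differed by -0.26 ± 0.14 (SE), with tumours 3, 4 and 5 above 0 and the other 4 FEAT arrays below. The lowest NK window holds Klra17 and Klra5 and differed by -0.12 ± 0.11 (SE). For scale, the 2 windows called anywhere in the genome lie side by side at Entpd4 and Loxl2 on chromosome 14 (chr14:64157382-64220254 and chr14:64228685-64289168). They differed by -1.04 ± 0.12 and -1.05 ± 0.13 (SE, limma adjusted p = 0.00129).

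Each array was also read alone. The share of member probes at or below -0.5 was 3.18%, 1.89%, 4.38%, 11.9%, 0.625% and 5.70% in tumours 1 to 6, 3.14% in the FEAT normal liver and 1.90% in wild type. All autosomal probes gave 3.44%, 1.34%, 2.93%, 14.0%, 3.24%, 8.54%, 6.29% and 1.52% on the same arrays. The members' share was below that of all probes on 5 of the 7 FEAT arrays and above it in tumours 2 and 3 and in wild type. The mean excess of members over all probes was -1.28 percentage points over the 7 FEAT arrays (SD 1.83) and 0.374 on the wild-type array. Upward, at or above 0.5, the excess was 0.261 percentage points on the FEAT arrays (SD 2.31) and 0.773 on the wild-type array. No window with a member was at or below -0.3 on any of the 8 arrays (0 of 37 on each). The share of all windows at or below -0.3 was 3.40%, 0.0654%, 0.103%, 3.62%, 4.88% and 0.967% in tumours 1 to 6, 0.827% in the FEAT normal liver and 0.0327% in wild type, so on most arrays none of 37 would be low at that rate. Upward, at or above 0.3, there was 1 such window in tumour 3 (2.70%; 1.36% of all windows), 3 in tumour 4 (8.11%; 7.90%) and 2 in tumour 6 (5.41%; 0.640%), and 0 on the other 5 arrays.

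**Figure D3:**
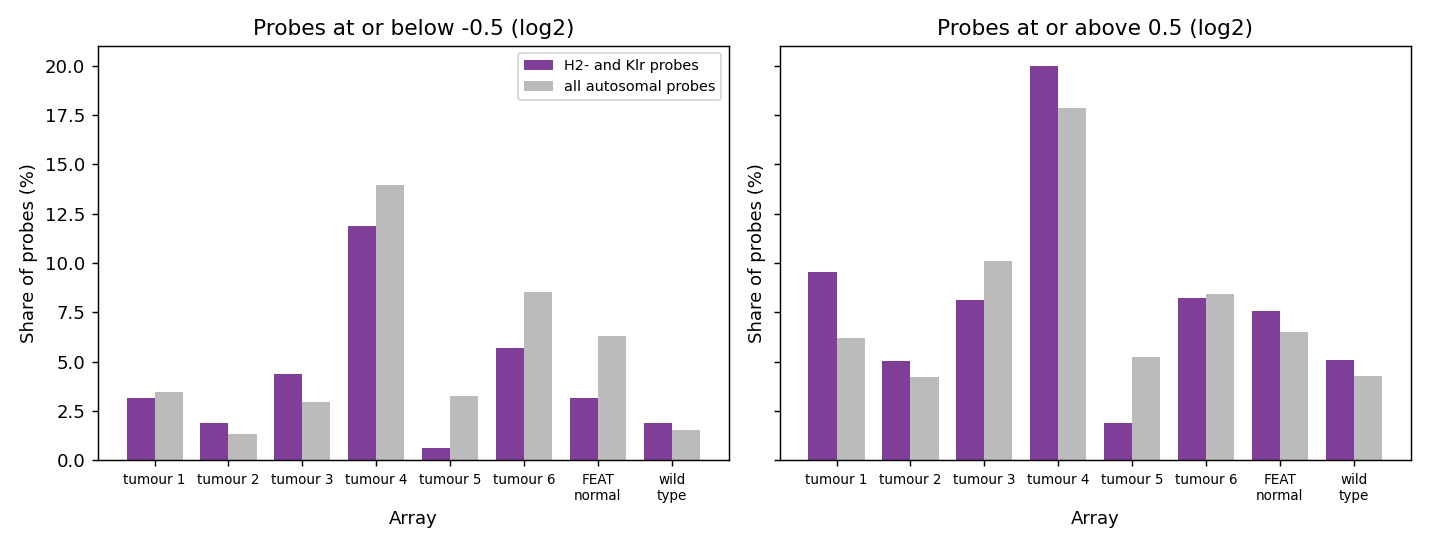
Share of probes (y axis, percent) at or below -0.5 (left) and at or above 0.5 (right) on each of the 8 arrays (x axis), for the H2- and Klr probes (purple) and all autosomal probes (grey). The low share of members runs from 0.625% in tumour 5 to 11.9% in tumour 4, where all probes are at 3.24% and 14.0%.

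The spread of the genes among the FEAT mice was close to that of genes elsewhere. The median SD over the 7 FEAT arrays was 0.144 for the 35 member genes and 0.148 for all genes. Of the 35 member genes with a value on all 8 arrays, 0 ranged over more than 1, against 4.89% of all such genes. H2-Q2, left out of that count for its missing values, ranged over 1.23 on the 5 FEAT arrays that gave a value. That range is of a single, dim probe.

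Values were lower at brighter probes. Across the 155 member probes, the correlation of a probe's value with its log2 signal on the wild-type array ran from -0.27 on the wild-type array to -0.67 in tumour 6, and across all autosomal probes from -0.25 on the wild-type array to -0.78 in tumour 4. These are correlations across probes within an array, and probes are not replicates. The difference of FEAT mean and wild type fell with signal likewise, with r = -0.42 across members and -0.51 across all probes. With the probes divided into 4 equal groups by signal, the median difference in the dimmest group was 0.09 for members and 0.15 for all probes, and in the brightest -0.13 and -0.21. With each array corrected for the signal of the probe, an alternative chosen after seeing the data, the difference of H2-Ke2 was 0.52 and that of Klrc1 0.24, and neither was called by limma. For the other genes the part of brightness was not tested one by one.

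**Figure D4:**
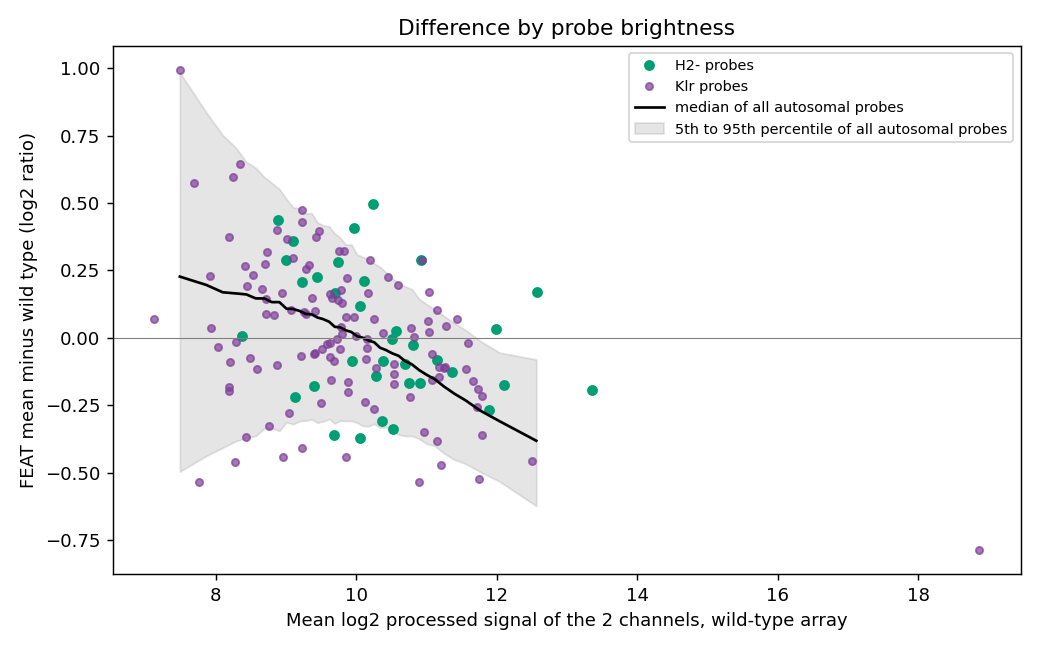
Difference of the FEAT mean and the wild-type array (y axis, log2 ratio) against the mean log2 signal of the probe on the wild-type array (x axis) for H2- probes (green) and Klr probes (purple). The line is the median of all autosomal probes and the shading their 5th to 95th percentile; the Klra22 probe with the T run lies alone at the far right, at -0.79.

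Genes that work with these receptors were looked at by list. Of 12 class I presentation genes, 9 had a tested value, 0 were called and the median difference was 0.04, from -0.28 (Psmb9, an immunoproteasome subunit) to 0.31 (Psmb8, another subunit). Tap1 and Tap2, which form the peptide transporter and lie in the class II region, differed by -0.22 ± 0.20 and 0.04 ± 0.20 (SE). Of 7 genes of the class II machinery, 6 were measured, 0 were called and the median was -0.04, with Cd74, the invariant chain, at -0.09 ± 0.20 (SE).

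Class III genes lie between the H2 genes in the MHC. Of a list of 14 class III genes and neighbours, 11 were measured, 0 were called and the median was 0.10. They ran from -0.27 (Lta, lymphotoxin alpha) to 0.52 (Cfb, complement factor B). Brd2, in that list at 0.27, lies between H2-Oa and H2-DMa, among the class II genes. Of 23 NK receptor ligands, adaptors and neighbouring lectins, 12 were measured and 0 were called, with a median of -0.04. They ran from -0.43 at Hcst, the DAP10 adaptor of NKG2D, to 0.33 at Cd69, an activation marker. The single Hcst probe was at -1.38 in the FEAT normal liver, -0.57 to 0.12 in the tumours and 0.0079 in wild type. Over all 24413 genes the median was -0.0024.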

How the data were processed

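Both channels were DNA: the sample in Cy3 and the reference in Cy5, per the labels. The authors deposited 1 log2 ratio per spot for each array, and scanner output of the wild-type array only was used. That output came from Agilent Feature Extraction (version 9.1.3.1, protocol CGH-v4_91), per the file headers, and the series description names CGH analytics 3.4. Setting the wild-type log2 ratios against the deposited log10 ratios of that scanner file (red over green, dye-normalised by the authors) gave r = -1, so a higher value means more test DNA there. For the FEAT arrays this direction follows from the dyes that the labels name. Brightness is the mean log2 of the deposited intensity (processed signal) of both channels, and the flags are those of the same scanner file.

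Spots of a probe were averaged, and the autosomal median of each array was subtracted, with no loess. FEAT arrays were compared with the wild-type array by limma 3.58.1 in R 4.3.3 (lmFit, eBayes), for every autosomal probe, gene and window of 10 probes with a value on all 8 arrays. Benjamini-Hochberg adjustment covered all features of a fit, at 0.05. Regions were compared by exact permutation of the 8 arrays. The scripts were tested on simulated data. The labels do not say whether the FEAT mice were related, so p-values measure only the spread between these samples.

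The members, gene lists and rules were chosen with earlier results of these data known. Named genes were those called, the 10 with the largest differences, a fixed list of well-known members and the 3 with the widest range. Values of other members, probes, windows and list genes illustrate counts and were picked with those values in view. The alternatives varied centring, flags, GC content, brightness, missing values, eBayes settings, window size and the arrays included. RefSeq symbols and the promoter sequence are of GRCm38.p6, used only for names, gene order and the sequence match. Python 3.11.15, numpy 2.4.6, pandas 2.3.3, scipy 1.17.1 and matplotlib 3.10.9 were used.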

Additional observations from a re-analysis of the deposited data

Results flagged for a closer look

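Within the 6 tumours, tumour 5 stood apart in the mean of all probes of the MHC, at 0.14. The nearest other tumour was at 0.03, the lowest at -0.03 and the median at -0.0017. Its whole chromosome 17 was at 0.18. Of 32 groups of values examined in this way, 1 was set apart, and chance alone would set apart about 1.6.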

How the results depend on the processing

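The number of H2- and Klr probes, genes and windows called was 0 in all 44 recomputations, over all alternatives tried. With these 44 included, 178 of 189 recomputed values moved by less than the limits used (1.5 times for a count, the spread between arrays for a value). Member counts at an unadjusted limma p under 0.05 were not among the 189. They stayed within the limit in 13 of 14 recomputations for probes, 12 of 15 for genes and 10 of 15 for windows. Signs were less steady: of 73 recomputed median and region differences, all close to 0, 14 changed sign, 8 of them the probe median, 3 the gene median, 2 the MHC and 1 the NK cluster. The lowest adjusted p among members was 0.654 to 0.937 for probes, 0.679 to 1.00 for genes and 0.820 to 1.00 for windows in these limma fits. Calls elsewhere were less steady, and the causes were not tested. With a trend and robust eBayes, 47 probes in all were called in place of 15, and 2 genes in place of 0. With each tumour or the FEAT normal liver left out, 9 to 22 probes and 0 to 1 genes were called, with 9 probes without tumour 3 or tumour 6, and 1 gene without tumour 4. Centring each chromosome called 5 genes. Windows of 5 probes gave 5 calls and windows of 20 probes gave 0, in place of 2, and correction for brightness, added after seeing the data, gave 0. That correction turned the members' excess of low probes on the FEAT arrays from -1.28 to 0.544 percentage points and moved the median difference of member probes from -0.0032 to 0.032. At a threshold of 0.3 the members' excess of low probes on the wild-type array was 2.27 percentage points in place of 0.374. The MHC difference ran from -0.03 to 0.06 and that of the NK cluster from -2.6e-06 to 0.05. No paired analysis was possible because the wild-type group is a single array. A single wild-type array and single probes for many H2- genes limit the precision.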
